A study of Mus musculus with 12 samples.

Results

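The IFIT genes and the ISG15 conjugation system were followed in mouse bone-marrow-derived macrophages given increasing doses of interferon gamma (IFNγ). The members are 9 listed symbols, namely the IFIT genes Ifit1, Ifit2 and Ifit3, the modifier Isg15, its E1, E2 and E3 enzymes Uba7, Ube2l6 and Herc6, the ISG15 protease Usp18, and the exonuclease Isg20. All 9 were found, each in 1 of the 46729 entries of the expression table, and all 9 passed the filter on low values. Bone marrow cells of C57BL6 mice were differentiated for 10 days with recombinant interleukin-3 and conditioned medium of the L-929 line, whose cells secrete colony-stimulating factor 1. Untreated cells were compared with cells kept in IFNγ during 8 h, at a dose of 0.2, 2 or 20 U/ml. For the top dose the label gives units without a volume, read here as U/ml. The labels list 3 libraries in each of the 4 groups and do not say whether they came from separate animals or cultures. The table holds 1 FPKM, a fragment count scaled by transcript length and by library total, per entry and group. No difference below therefore has a replicate check, an error or a test, and neighbouring levels in any order cannot be told apart by their spread.

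Interferons switch on a shared set of antiviral genes through STAT and IRF transcription factors that bind the interferon-stimulated response element (ISRE) or the gamma-activated site (GAS). IFIT proteins are built from tetratricopeptide repeats, and they bind viral RNA or each other and hold back translation. ISG15 is a ubiquitin-like protein that is attached to other proteins in a chain of reactions, by the E1 enzyme UBA7, the E2 enzyme UBE2L6 and, in mouse, the E3 ligase HERC6. USP18 removes it again and also dampens signalling at the type I interferon receptor. ISG20 is an exonuclease that degrades RNA from the 3′ end.

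The upstream sequence is shown for members that differ in the motifs they hold. RefSeq promoter windows (GRCm38.p6, 250 bases before to 50 after the annotated start) were present for 8 of the 9 members, in 11 windows. Usp18 had none in the table. The ISRE core was searched as GAAANNGAA, which reads TTCNNTTTC on the other strand, and the GAS as TTCNNNGAA, both on both strands. The letters below run 5′ to 3′ over the 200 bases before the start, and capitals mark each match. Isg15, Ifit1 and Ifit3 are shown for their repeated ISRE cores, Ifit3b as the near-identical copy of Ifit3, Isg20 for its GAS, and Ube2l6 as a member with neither.
Isg15, chr4:156200819-156201018, minus strand: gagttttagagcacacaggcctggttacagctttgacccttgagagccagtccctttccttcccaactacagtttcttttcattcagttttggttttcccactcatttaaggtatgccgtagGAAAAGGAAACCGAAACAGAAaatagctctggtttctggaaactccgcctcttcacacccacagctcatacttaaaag
Ifit1, chr19:34640689-34640888, plus strand: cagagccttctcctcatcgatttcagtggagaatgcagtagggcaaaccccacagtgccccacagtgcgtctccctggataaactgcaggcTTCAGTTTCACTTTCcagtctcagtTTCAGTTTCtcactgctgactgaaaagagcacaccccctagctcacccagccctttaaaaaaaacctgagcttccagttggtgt
Ifit3, chr19:34583329-34583528, plus strand: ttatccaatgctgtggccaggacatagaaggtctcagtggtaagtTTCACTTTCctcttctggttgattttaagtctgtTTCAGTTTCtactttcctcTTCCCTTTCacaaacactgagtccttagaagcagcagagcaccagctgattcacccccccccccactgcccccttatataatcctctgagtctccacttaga
Ifit3b, chr19:34607757-34607956, plus strand: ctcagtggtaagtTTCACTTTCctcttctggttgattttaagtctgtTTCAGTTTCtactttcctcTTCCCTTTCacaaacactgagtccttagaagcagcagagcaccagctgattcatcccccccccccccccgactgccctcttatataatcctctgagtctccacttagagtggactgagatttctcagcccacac
Isg20, chr7:78913224-78913423, plus strand: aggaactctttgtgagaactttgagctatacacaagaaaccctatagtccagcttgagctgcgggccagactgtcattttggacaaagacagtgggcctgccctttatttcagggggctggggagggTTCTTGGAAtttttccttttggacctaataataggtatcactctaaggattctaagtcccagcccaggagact
Ube2l6, chr2:84798628-84798827, plus strand: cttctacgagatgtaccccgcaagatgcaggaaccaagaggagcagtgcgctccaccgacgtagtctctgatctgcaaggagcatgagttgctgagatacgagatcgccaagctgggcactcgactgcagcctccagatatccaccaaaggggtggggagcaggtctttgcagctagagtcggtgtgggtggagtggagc

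The ISRE core was present in 3 members, with 3 matches in each of their windows. In Isg15 the matches overlapped and began 78, 72 and 66 bases before the start. In Ifit1 they began 109, 103 and 84 bases before it, and in Ifit3 155, 121 and 102 bases before it. At least 1 ISRE core was found in 8.56% of all 32851 windows, and at least 3 in 0.0639%, which is 21 windows. Of those 21, 5 belonged to Isg15 or to genes of the IFIT family, but they are not separate sites, since the windows of Ifit1 and Ifit1bl2 overlap and those of Ifit3 and Ifit3b are near-identical. A GAS was found 73 bases before the start of Isg20 and 241 bases before the first start of Ifit2, against 8.30% of all windows with at least 1. Uba7, Ube2l6 and Herc6 held neither motif in these windows, which says only that these letters were not there.

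Of 10 macrophage markers 9 were used, among them Csf1r, the receptor for colony-stimulating factor 1, at 340 to 418 FPKM and Adgre1 (F4/80) at 137 to 189. The lowest of the 9 was Mertk, at 8.64 to 14 FPKM, and Fcgr1, an Fc receptor, differed with dose, from 32.3 FPKM in untreated cells to 348 at 20 U/ml. The marker Lyz2 was listed at 0 in 3 groups, which can be a failed estimate. All 8 T and NK cell markers stayed under 1 FPKM, with summed levels of 0.0424 to 0.263 FPKM, and so did all 4 stromal and all 4 erythroid markers. The same held for 3 of 4 B cell, 4 of 5 neutrophil and 3 of 4 dendritic cell markers. The summed level of the dendritic cell list was 1.75 FPKM without IFNγ and 2.03, 7.65 and 48.2 at the 3 doses. The merged entry of Clec9a and Clec1b gave 1.27, 1.40, 7.16 and 47.1 FPKM of these sums, while Flt3 was at most 0.0255 FPKM. Of the plasmacytoid dendritic cell list, Tcf4 was at 21.2 to 54.1 FPKM and Siglech reached 1.97 at 0.2 U/ml and at most 0.258 in the other groups. The part of these cells in the results was not tested, and in bulk RNA fewer cells and less RNA per cell cannot be told apart.

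All 9 members had higher FPKM at each dose than at the dose below, a pattern shown by 9.28% of the 11580 entries used. An entry counted as higher where the log2 ratio of FPKM + 1 was at least 1, which is 2-fold on this scale. By that rule 3 members were higher at 0.2 U/ml than in untreated cells, against 5.23% of all entries, 8 at 2 U/ml, against 2.50%, and 9 at 20 U/ml, against 6.51%. No dose had a lower member (0 of 9), against 0.328%, 0.760% and 2.94% of all entries in dose order. At 20 U/ml 754 of all entries were higher and 340 lower, a split that upper-quartile scaling moved to 629 and 473. Of the 754, 63.4% had higher FPKM at each dose than at the dose below, as the 9 members did. The median log2 ratio over the members was 0.58, 1.32 and 3.59 at the 3 doses, and that over all entries used was 0.00, 0.01 and 0.01. The 3 comparisons share the same untreated values.

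**Figure D1:**
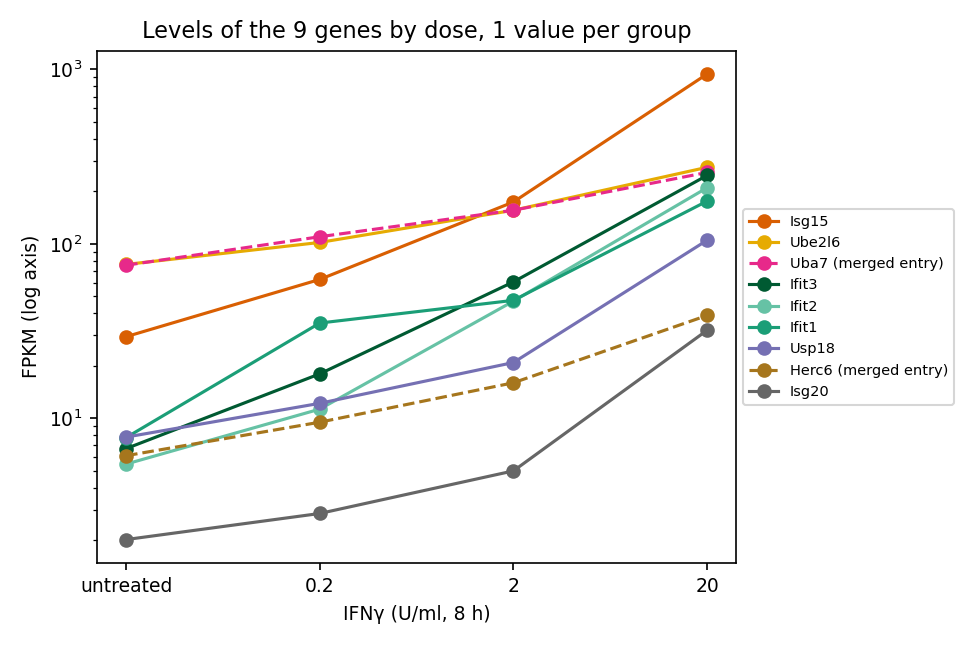
FPKM of the 9 genes (vertical log axis) in untreated cells and at 0.2, 2 and 20 U/ml IFNγ (horizontal axis), 1 deposited value per group; dashed lines are entries that merge several genes. Every line climbs, and Isg15 goes from 29.4 FPKM in untreated cells, under Ube2l6 and the Uba7 entry, to 942 at 20 U/ml, above both.

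**Figure D2:**
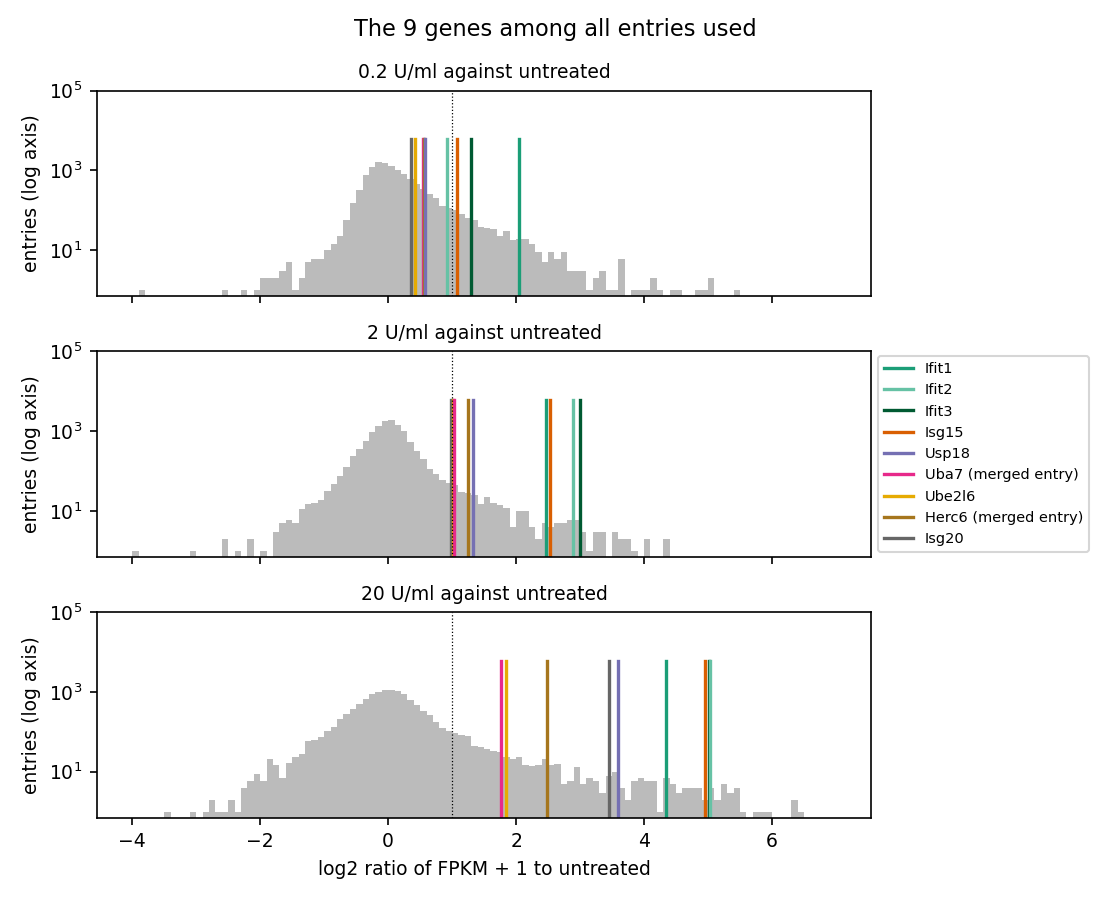
Histograms of the log2 ratio of FPKM + 1 to untreated (horizontal axis) over the 11580 entries used (vertical log axis) at each dose, with a coloured line per gene and the size rule dotted at 1. The 9 lines lie between 0.35 and 2.05 at 0.2 U/ml and between 1.76 and 5.03 at 20 U/ml.

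Among the IFIT genes, which lie together on chromosome 19, Ifit2 and Ifit3 followed nearly the same course and Ifit1 another. Ifit2 (34550694 to 34576419, plus strand, GRCm38) was at 5.47 FPKM without IFNγ and at 11.3, 47.0 and 210 with the 3 doses in order. Ifit3 (34583531 to 34588731), which binds and stabilises IFIT1 in human cells, was at 6.71, 18.0, 60.6 and 247 FPKM in the same order. Both more than tripled at each step from 0.2 U/ml upwards, by 4.17-fold and 4.47-fold for Ifit2 and by 3.37-fold and 4.07-fold for Ifit3. Their log2 ratios at 20 U/ml were 5.03 and 5.01.

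Ifit1 (34640871 to 34650009), whose product recognises RNA with an incomplete cap, was at 7.76, 35.2, 47.5 and 176 FPKM. It was already 4.53-fold higher at 0.2 U/ml, the highest ratio of the 9 at that dose, and 1.35-fold higher again at 2 U/ml, the smallest ratio of the 9 for that step. Ifit1 thus stood above Ifit2 by 1.42-fold in untreated cells and 3.12-fold at 0.2 U/ml, and was level with it at 2 U/ml (1.01). Of all entries, 5.23% were higher at 0.2 U/ml than in untreated cells and 2.50% at 2 U/ml. USP proteases, a list taken up again below, had 5 of 36 entries higher with 0.2 U/ml and 0 with either larger dose. Usp34, named after its values were seen, was among the 5, with 24.8 FPKM against 7.79 in untreated cells. Other lists below held 0 higher entries with 0.2 U/ml. These were the modifiers (0 of 14), E1 (0 of 9), E2 (0 of 32) and HERC enzymes (0 of 4). The same was true of the exonucleases (0 of 8) and the other ISG15 ligases and proteases (0 of 6). The count for the upstream factors is not reported here. Whether the high Ifit1 value at 0.2 U/ml belongs with the 5 USP entries was not tested.

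The 3 other genes of the cluster, from a list of IFIT paralogs, were lower in level. Ifit3b was at 0.695, 1.55, 6.46 and 25.2 FPKM, and Ifit1bl1 at 0.783, 1.15, 5.44 and 25.1. Both were higher at 2 and 20 U/ml by the size rule, with log2 ratios of 3.95 and 3.87 at 20 U/ml. Ifit1bl2 stayed under 1 FPKM, at 0.0350, 0.0757, 0.154 and 0.221, and was not used. Its first promoter window overlaps that of Ifit1 by 245 bases on the opposite strand and holds the same 3 ISRE cores, while Ifit1 reached 176 FPKM.

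Ifit3 and Ifit3b could share reads. Their coding sequences were identical at 99.1% of 1209 bases and their promoter windows at 99.2% of 260 aligned bases, and 51.2% of all 50-base windows of the Ifit3 transcripts occur in another IFIT gene. The ratio of Ifit3 to Ifit3b FPKM stayed between 9.38 and 11.6 in the 4 groups. Such a ratio could come from a division of shared reads by the authors' software, which was not tested. Ifit2 shared 0 such windows and Ifit1 shared 7.13%, so their values depend less on that division. By protein, IFIT1 and IFIT2 are identical at 36.3% of 454 aligned residues and IFIT2 and IFIT3 at 45.3% of 402.

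Genes beside the cluster were taken by position, as protein-coding genes within 150 kb. Ch25h, which makes 25-hydroxycholesterol, stood at 2.66 FPKM without IFNγ and 73.0 at 20 U/ml, with log2 ratios of 0.15, 1.12 and 4.34 at the 3 doses. Lipa, the lysosomal acid lipase gene that lies between Ch25h and Ifit2, was at 355, 277, 313 and 314 FPKM, a log2 ratio of -0.18 at 20 U/ml. Slc16a12, on the other side, was at 0 in 3 groups and 0.00749 FPKM at 20 U/ml.

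**Figure D3:**
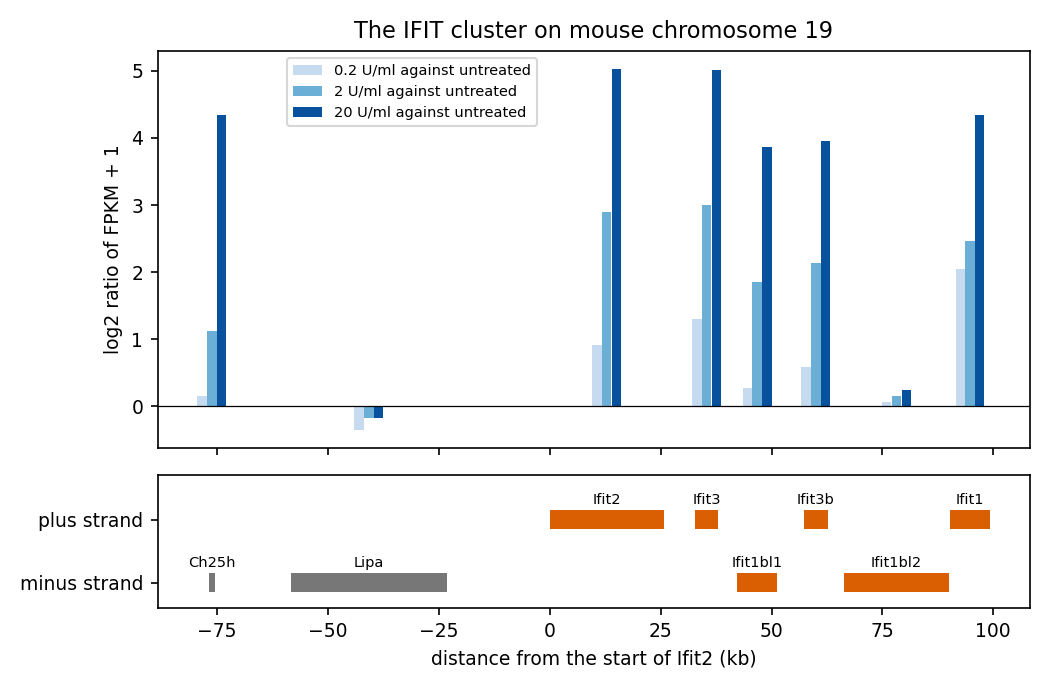
Upper panel: log2 ratio of FPKM + 1 to untreated at 3 doses for each gene, placed at the middle of the gene; lower panel: the genes by strand, IFIT family in orange and neighbours in grey, against distance from the start of Ifit2 in kb (Slc16a12, near 0 FPKM, is not drawn). Ifit2, Ifit3, Ifit1bl1, Ifit3b and Ifit1 reach 3.87 to 5.03 at 20 U/ml, Ifit1bl2 0.24, and the neighbours Ch25h 4.34 and Lipa -0.18.

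Isg15 was the member with the highest level at 20 U/ml. It lies on chromosome 4 (156199424 to 156200818, minus strand) and was at 29.4, 62.6, 174 and 942 FPKM from no IFNγ to the top dose. The fold was 2.13 for the first step, 2.79 for the second and 5.40 for the third. At 20 U/ml its level stood above 99.0% of the entries used, from 70.4% in untreated cells.

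A list of 14 entries of ubiquitin and other ubiquitin-like modifiers had 1 higher and 0 lower members at 20 U/ml, near the shares of all entries (6.51% and 2.94%), and its median log2 ratio was -0.04. The higher one was Ubd (FAT10), a modifier also known to respond to interferon, at 0.0209 FPKM in untreated cells and 6.96 at 20 U/ml. Atg12, the autophagy modifier, had a log2 ratio of -0.68, the merged entry of Sumo3 and Ube2g2 one of 0.52, and Fau, a fusion of a ubiquitin-like and a ribosomal protein, one of -0.44. By level, on the FPKM scale, Isg15 was 13th of the 15 in untreated cells and 4th at 20 U/ml.

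The E1 and E2 enzymes of ISG15 had the highest levels of the 9 in untreated cells and the smallest ratios at 20 U/ml. Ube2l6, on chromosome 2 (84798828 to 84810335), was at 76.3, 102, 156 and 275 FPKM, which is 3.61-fold higher at 20 U/ml. The entry of Uba7, on chromosome 9 (107975505 to 107984060), was at 75.5, 110, 156 and 257 FPKM, or 3.41-fold higher. That entry merges Uba7 with Cdhr4, Gm20661, Gm20662 and Ip6k1, an inositol hexakisphosphate kinase gene, so the Uba7 share of its values cannot be told apart. With log2 ratios of 0.42, 1.02 and 1.84 for Ube2l6 and 0.54, 1.03 and 1.76 for the Uba7 entry, these were the most alike of all 36 pairs of members.

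The counts for lists of other enzymes stand against 6.51% of all entries higher and 2.94% lower at 20 U/ml, and a count of 0 of 9 is near those shares. Of 9 entries of E1 enzymes 0 were higher or lower at 20 U/ml, with a median log2 ratio of 0.08, and the largest in size were Mocs3 (0.46), Uba1 of the ubiquitin pathway (0.40), Uba2 of the SUMO pathway (0.26) and Atg7 (-0.23). Of 32 E2 entries 0 were higher and 1 was lower, with a median of 0.15. The lower one was Ube2c, which acts in mitosis, at 157 FPKM in untreated cells and 65.3 at 20 U/ml, followed by Ube2t (-0.94), Ube2f of the NEDD8 pathway (0.63) and Ube2e1 (0.61). Ube2l3, whose protein is identical to that of Ube2l6 at 50.3% of 153 residues, was at 118 and 132 FPKM. Uba7 and Uba1 proteins are identical at 47.8% of 969 aligned residues.

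Isg15 passed Ube2l6 and the Uba7 entry in level between 0.2 and 2 U/ml, and was above the Herc6 entry in every group, by 4.81-fold in untreated cells. The ratio of Isg15 to Ube2l6 FPKM was 0.385 without IFNγ and 0.611, 1.12 and 3.42 at the 3 doses. Against the Uba7 entry it was 0.389, 0.567, 1.12 and 3.66. FPKM is per transcript length, so levels of different genes can be set side by side, but these ratios say nothing of protein.

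Herc6, the E3 ligase, was measured in an entry merged with 4930533I22Rik and Gm45193. On chromosome 6 (57581000 to 57664632), this entry was at 6.11, 9.51, 16.0 and 38.9 FPKM, 6.36-fold higher at 20 U/ml. The 4 other HERC ligases had 0 higher or lower, with log2 ratios of -0.32 for Herc1, 0.08 for Herc2, 0.23 for Herc3 and 0.22 for Herc4. Transcripts of other genes linked to ISG15 attachment or removal were near their untreated values as well. Of 6 entries used 0 passed the size rule in either direction. At 20 U/ml 6.51% of all entries were higher and 2.94% lower. Counts of 0 of 6 here and 0 of 4 for the HERC ligases are near those shares. The ISG15 ligases Arih1 (0.13) and Trim25 (0.09) and the proteases Usp5 (0.12) and Usp21 (-0.11) had the largest ratios in size at 20 U/ml. Trim25, at 22.3 and 23.8 FPKM, has 1 ISRE core in its promoter window.

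Usp18, which removes ISG15, had its largest difference at the last step. On chromosome 6 (121245906 to 121270917), it was at 7.81, 12.2, 20.9 and 105 FPKM. The fold from 2 to 20 U/ml was 5.01, against 1.56 and 1.72 for the 2 steps before. Isg15 kept a ratio to Usp18 of 8.34 at 2 U/ml and 8.99 at 20 U/ml, from 3.76 in untreated cells. Among 36 entries of other USP proteases 0 were higher or lower at 20 U/ml, against 6.51% and 2.94% of all entries. Usp25 (0.93), Usp12 (0.90), Usp7 (0.76) and Usp32 (0.57) came nearest. By level Usp18 was 20th of the 37 in untreated cells and 1st at 20 U/ml.

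Isg20 had the lowest level of the 9 in every group. On chromosome 7 (78913424 to 78920396), it was at 2.02, 2.85, 5.0 and 32 FPKM. The step from 2 to 20 U/ml was 6.39-fold, the highest of the 9, and it made up 71.2% of the log2 ratio at 20 U/ml. In a list of related 3′ exonucleases 1 of 8 entries was higher at 20 U/ml and 0 were lower, against 6.51% and 2.94% of all entries. That one was the merged entry of Trex1, which degrades DNA in the cytosol, with Atrip and Gm42641, at 56.3 FPKM in untreated cells and 365 at 20 U/ml. Eri3 (-0.47), Aen (0.41) and Isg20l2 (0.32) followed in size.

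**Figure D4:**
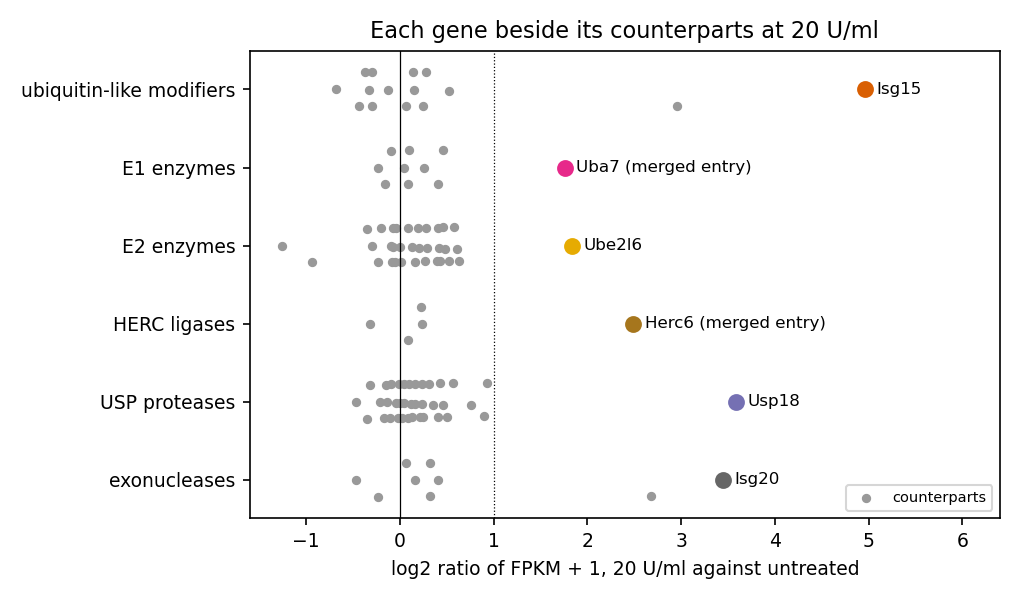
Log2 ratio of FPKM + 1 at 20 U/ml against untreated (horizontal axis) for 6 of the genes (large points) beside entries of the same kind of protein (grey points), with 0 solid and the size rule dotted at 1. Each large point lies to the right of its grey points; the highest grey points are Ubd at 2.96 and the Trex1 entry at 2.68.

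The dose at which the members differed most was compared across them. From 0.2 to 2 U/ml 3 of 9 passed the size rule, namely Ifit2, Ifit3 and Isg15, against 1.51% of all entries. From 2 to 20 U/ml 7 of 9 did, all but Ube2l6 and the Uba7 entry, against 2.90%. Again 0 members were lower, against 6.26% of all entries for the first of these steps and 1.11% for the second. In 8 of the 9 the step from 2 to 20 U/ml was the largest of the 3 on the log2 scale, and Ifit1 was the exception. The same held for 63.0% of the 754 entries higher at 20 U/ml.

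On the linear FPKM scale, 2 U/ml gave a median of 22.5% of the difference seen at 20 U/ml, with a range from 9.97% for Isg20 to 44.0% for the Uba7 entry. Ube2l6 was at 40.1%, the Herc6 entry at 30.0%, Ifit1 at 23.7%, Ifit3 at 22.5%, Ifit2 at 20.3%, Isg15 at 15.9% and Usp18 at 13.5%. Over the 754 entries higher at 20 U/ml the median was 30.2%, with quartiles of 19.4% and 43.4%. Usp18, Isg20 and Isg15 therefore lay under the lower quartile, and the Uba7 entry above the upper one. At 0.2 U/ml the members had reached between 2.78% (Isg20) and 19.2% (the Uba7 entry), with a median of 4.70%. Over the 754 entries the median at that dose was 6.15%, with quartiles of 0.910% and 16.7%.

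**Figure D5:**
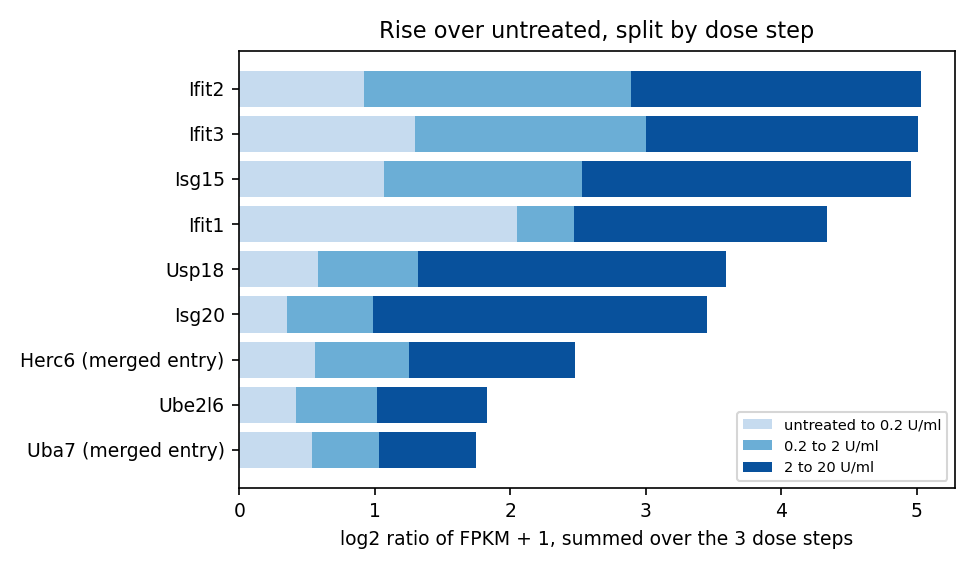
Log2 ratio of FPKM + 1 at 20 U/ml against untreated (bar length, horizontal axis) for each gene, split into the steps from untreated to 0.2, 0.2 to 2 and 2 to 20 U/ml. Ifit1 has 2.05 of its 4.34 in the first step, and Isg20 has 2.46 of its 3.45 in the last.

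Entries with the most similar course were found by the distance between their 3 log2 ratios to untreated and the median of the members, over 4 groups. The 10 nearest were the merged entry of Fpr2 and Fpr3, then C4b, Plac8, Saa3, Ifi205, Tlr9, Cd86, Slco3a1, Gm31026 and Ly6c1, at distances of 0.21 to 0.46. Ms4a4c and AW112010 were each among the 3 nearest to Ifit2, Ifit3 and Isg15, and Rsad2 (viperin), an antiviral gene, was the second nearest to Isg15 at a distance of 0.35. Dtx3l, a ubiquitin ligase gene, was nearest to the Herc6 entry, at 0.10. Nearest to Ifit1 was Batf2, at 0.91, farther than the nearest entry of any other member.

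Upstream factors that bind the ISRE or related sites were read beside the members. Irf7 was at 17.2, 31.4, 74.3 and 422 FPKM, and Stat2, a part of the ISGF3 complex that binds the ISRE, at 11.5, 19.4, 43.5 and 90.8. Irf1 had log2 ratios of 1.36, 3.07 and 3.87, so most of its ratio was present by 2 U/ml. The same held for all members but Usp18 and Isg20, whose last step made up 63.3% and 71.2% of the log2 ratio. In the other members it made up between 40.1% (Ifit3) and 49.6% (the Herc6 entry). The merged entry of Irf9 and Rnf31, where Irf9 is the DNA-binding part of ISGF3, was just under the size rule at 0.98. For the type I interferon receptor and its kinases 0 of 4 entries passed at 20 U/ml. That is near the shares of all entries, 6.51% higher and 2.94% lower. Their log2 ratios were 0.78 for Tyk2, -0.35 for Ifnar1, 0.14 for Jak1 and -0.05 for the merged entry of Ifnar2.

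All 21 interferon genes looked up were listed under 1 FPKM in every group, and 18 were listed at 0 in all 4. A listed 0 can be a failed estimate in this table, so these values do not show that the transcripts were absent. Ifnb1 (interferon beta) was listed at 0 without IFNγ, and its values with the 3 doses in order were 0.109, 0.0493 and 0.500 FPKM. Its depth is unknown, and the part of interferon beta in the values of the members was not tested.

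In the authors' deposited table, a Cuffdiff comparison of treated with untreated that names no dose, the members did not all point one way. That table marks 7 of the 9 entries as significant and higher and 2 as significant and lower, against 35.1% and 33.8% of the 12854 entries it tested. The authors' deposited table gives log2 fold changes of 2.41 for Ifit1, 1.95 for Ifit2, 1.52 for Ifit3, 2.01 for Isg20, 2.13 for the Uba7 entry, 0.61 for Usp18 and 0.40 for Isg15. Lower in the authors' deposited table were Ube2l6, at -2.09 with a q-value of 9.9e-05, and the Herc6 entry, at -1.26 with a q-value of 0.0022. In the expression table both had ratios above 0 at every dose and passed the size rule at 2 and 20 U/ml. Sizes differed as well. Isg15, at 0.40 with a q-value of 0.039 in the authors' deposited table, had log2 ratios of 1.07 to 4.96 in the expression table. The Uba7 entry, at 2.13, had 0.54 to 1.76 there. Ifit1, Ifit2, Ifit3 and Isg20 lay within the range of their ratios over the 3 doses. Usp18, at 0.61, lay within its range of 0.58 to 3.59, but that depended on the pseudocount of 1. With a pseudocount of 0.01 its ratio at 0.2 U/ml, the lowest of the 3 doses, was 0.64. Neither the header of the authors' deposited table nor the labels say which libraries entered that comparison.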

How the data were processed

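The labels list 12 libraries, 3 in each of 4 groups. Per the submitters' processing notes, the build was mm10 and the tools listed are Cuffdiff 2.1.1, TopHat2 2.1.1 and Cufflinks 2.1.1. The deposited expression table holds 1 FPKM per entry and group, per the file headers. Its untreated column names no unit and was read as FPKM. No source used here says whether a value combines 3 libraries. The other deposited table holds the authors' log2 fold changes, p-values and q-values. Its 2 columns of values per condition matched no group and were not used.

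Ratios are differences of log2(FPKM + 1), so the pseudocount is 1, which understates differences of low genes. Of 46729 entries, 11852 had a mean of at least 1 FPKM. Of these, 272 listed at 0 in a group were left out, which left 11580, 695 of them merging genes. Limma could not be used with 1 value per group, so entries were called by size alone, with no p-value. Depth is unknown. Among 1661 low entries no step of whole reads was found, since the most common ratio was shared by 26.

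The members and lists were chosen with earlier results of these data known. Named genes are the members, the IFIT paralogs, up to 4 per other list that differed most at 20 U/ml, and the 10 entries nearest in course. Positions came from GENCODE M21 (GRCm38), the assembly behind mm10, and promoters from RefSeq. Proteins were translated from GENCODE transcripts and aligned with Biopython 1.88. One entry among the upstream factors, and the count over their list, are not reported here.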

Additional observations from a re-analysis of the deposited data

How the results depend on the processing

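Ratios were recomputed with pseudocounts of 0.1, 0.01 and 5, upper-quartile scaling and quantile normalization. A mean of at least 5 FPKM was also required, which changed the entries used but no member ratio. All 9 members kept a ratio above 0 at every dose and step. Since each had higher FPKM at each dose than at the dose below, no pseudocount could change a sign. Only upper-quartile scaling and quantile normalization could have done so. Of 270 ratios 257 kept their side of the size rule, 9 fell under it and 4 passed it. The 257 include those under the mean of at least 5 FPKM, which could not differ. At 20 U/ml all 9 stayed higher except under a 4-fold rule, where 7 did (2.32% of all entries). With a pseudocount of 5, 1 member was higher at 0.2 U/ml in place of 3 (3.06% of all entries), and 5 at 2 U/ml in place of 8 (1.49%). A 4-fold rule gave counts of 1 for 0.2 U/ml (1.09% of all entries) and 4 for 2 U/ml (0.682%), and 0 for the step between them in place of 3 (0.173%), and a 1.5-fold rule gave 7 for that last step (5.77%). Ifit2 at 0.2 U/ml was at 1.03 with a pseudocount of 0.1, against 0.92, and Isg20 at 2 U/ml at 1.27, against 0.99. Upper-quartile scaling put Isg15 at 0.2 U/ml at 0.95, and the Uba7 entry and Ube2l6 at 2 U/ml at 0.97 and 0.96. It moved the median of all entries at 20 U/ml from 0.01 to -0.11 and the split of all entries from 754 higher and 340 lower to 629 and 473. Leaving out entries that merge genes, a setting chosen after seeing the data, dropped the Uba7 and Herc6 entries and changed no member ratio. Then 7 of 7 members were higher at 20 U/ml, 6 with 2 U/ml and 3 with 0.2 U/ml. These are the main counts without the dropped entries. The shares of all entries were slightly under the main ones of 6.51%, 2.50% and 5.23% in that order. The cause of these shifts was not tested. No replicate could be left out. No paired analysis was possible because the table holds 1 value per group and its columns carry no replicate numbers.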
